A study of Mus musculus with 30 samples.

Results

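Short cassette exons are alternative exons of at most 51 nt that are either kept in or skipped from a transcript between fixed neighbours. In 4 deposited lists of splicing differences from mouse neurons, every cassette event (an alternative exon with a constant exon on each side) whose alternative exon was 51 nt or shorter was taken, and each exon was counted once by its chromosome, start, end and strand. This gave 342 distinct short exons among 1730 distinct cassette exons. Of these, 133 were 27 nt or shorter, the usual limit for a microexon, and 209 were 28 to 51 nt long. They lay in 258 named genes, and 1 exon had no gene name. Of those genes, 200 had 1 listed short exon and 58 had more, for 141 exons.

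The series has 30 samples in 10 groups of 3, and the 4 lists cover 18 samples in 6 groups of C57BL/6J mice. Neurons were isolated by fluorescence-activated sorting from the cortex at embryonic day 18.5, from control mice (Wild-type_Emx1-Cre, Wild-type_Gad2-Cre) and from conditional Nova2 knockout mice (Nova2-cKO_Emx1-Cre, Nova2-cKO_Gad2-Cre), written cKO below. The Purkinje layer of the cerebellum was dissected at postnatal day 28 from control and cKO mice with Pcp2-Cre. The remaining 12 samples were not analysed here. All 6 groups carry a Cre driver: Emx1-Cre is active in progenitors of the dorsal forebrain, the source of cortical excitatory neurons and of some glia, Gad2-Cre in inhibitory neurons that make GABA, and Pcp2-Cre in Purkinje cells. A dissected layer also holds cells without Cre. The lists give 1 pooled inclusion level per group, so no value by sample, no spread between samples and no level of Nova2 by sample could be shown. It is not stated in the labels if the 3 samples per group are 3 animals.

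NOVA2 is a neuronal RNA-binding protein that recognises clusters of the RNA word YCAY, where Y is C or T, and where it binds relative to an exon can decide whether that exon is kept or skipped. Exons of this size are hard for the spliceosome to recognise unaided, because the complexes at the splice sites on either side crowd each other, and their inclusion often depends on neuronal splicing factors and on elements in the neighbouring introns. Many short exons encode a few residues on the surface of a protein and leave the reading frame intact, and in the brain they are frequent in genes for synaptic adhesion, vesicle release and the cytoskeleton.

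An inclusion level is a fraction from 0 to 1, read here as the share of the RNA that keeps the exon. Every listed event has a false discovery rate (FDR) of at most 0.05 and a difference of at least 0.1 between its groups in the authors' deposited tables. Listing itself is therefore the test, and "rose" and "fell" below mean a listed difference. Because only events past these limits are in the files, an exon missing from a list is not shown to be unchanged.

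The exons printed next are coding exons of GENCODE M21 on mm10, chosen to show falls, rises and the exons discussed below. Each is written 5′ to 3′ on the RNA strand with the exon in capitals. Where the neighbouring exons are coding too, 15 nt of each are added in lower case, so the capitals show the insert within the spliced reading frame.
Cacna1b, 12 nt, chr2:24656711-24656722, minus strand: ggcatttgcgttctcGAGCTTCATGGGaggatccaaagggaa
Kdm1a, 12 nt, chr4:136563438-136563449, minus strand: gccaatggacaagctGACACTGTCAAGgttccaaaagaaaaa
Cacna2d3, 18 nt, chr14:29124666-29124683, minus strand: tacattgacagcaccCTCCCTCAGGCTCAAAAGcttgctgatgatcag
Ptprf, 18 nt, chr4:118252076-118252093, minus strand: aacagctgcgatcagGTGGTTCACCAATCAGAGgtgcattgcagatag
Ptprd, 18 nt, chr4:76138556-76138573, minus strand: GTGGTACACCAATAAGAG
Clasp2, 27 nt, chr9:113862436-113862462, plus strand: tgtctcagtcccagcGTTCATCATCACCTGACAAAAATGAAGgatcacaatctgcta
Clasp2, 27 nt, chr9:113865086-113865112, plus strand: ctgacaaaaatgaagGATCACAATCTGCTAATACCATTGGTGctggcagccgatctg
Cask, 36 nt, chrX:13550947-13550982, minus strand: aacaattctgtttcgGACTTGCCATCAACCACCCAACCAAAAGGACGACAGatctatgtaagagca
Those 8 exons fell in cKO neurons. The next 5 rose.
Robo2, 12 nt, chr16:74008775-74008786, minus strand: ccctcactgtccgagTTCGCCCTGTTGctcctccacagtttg
Slc8a1, 21 nt, chr17:81442203-81442223, minus strand: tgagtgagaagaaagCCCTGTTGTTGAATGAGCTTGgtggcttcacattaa
Ptprz1, 21 nt, chr6:23024714-23024734, plus strand: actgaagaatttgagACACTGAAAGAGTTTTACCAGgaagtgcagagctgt
Sgce, 27 nt, chr6:4690469-4690495, minus strand: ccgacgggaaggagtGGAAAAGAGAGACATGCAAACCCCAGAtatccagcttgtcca
Chl1, 48 nt, chr6:103666920-103666967, plus strand: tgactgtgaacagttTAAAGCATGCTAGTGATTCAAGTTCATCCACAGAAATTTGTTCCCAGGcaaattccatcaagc
For the last pair the values taken went in opposite directions in the 2 cortical classes. For Ank3 this held with 1 of 2 listed events only, as given below.
Ank3, 12 nt, chr10:69929447-69929458, plus strand: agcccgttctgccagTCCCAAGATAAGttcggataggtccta
Adgrl3, 18 nt, chr5:81792361-81792378, plus strand: AGCCCTACAGAGAGACAA

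The lengths of the 342 exons ran from 8 to 51 nt with a median of 33 nt, and each length that is a multiple of 3 was more frequent than the lengths on either side of it. A multiple of 3 was found for 244 of 342 (71.3%, exact Clopper-Pearson 95% interval 66.2 to 76.1), against 689 of 1388 longer cassette exons (49.6%, 47.0 to 52.3). Intervals here and below cover counting error only and treat exons as independent. Among exons up to 27 nt the share was 109 of 133 (82.0%, 74.4 to 88.1), and among those of 28 to 51 nt it was 135 of 209 (64.6%, 57.7 to 71.1). The most frequent lengths were 45 nt with 25 exons, 24 nt with 23, and 27 and 33 nt with 22 each. Of the 98 exons that were not a multiple of 3, 54 left a remainder of 2 and 44 a remainder of 1.

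**Figure D1:**
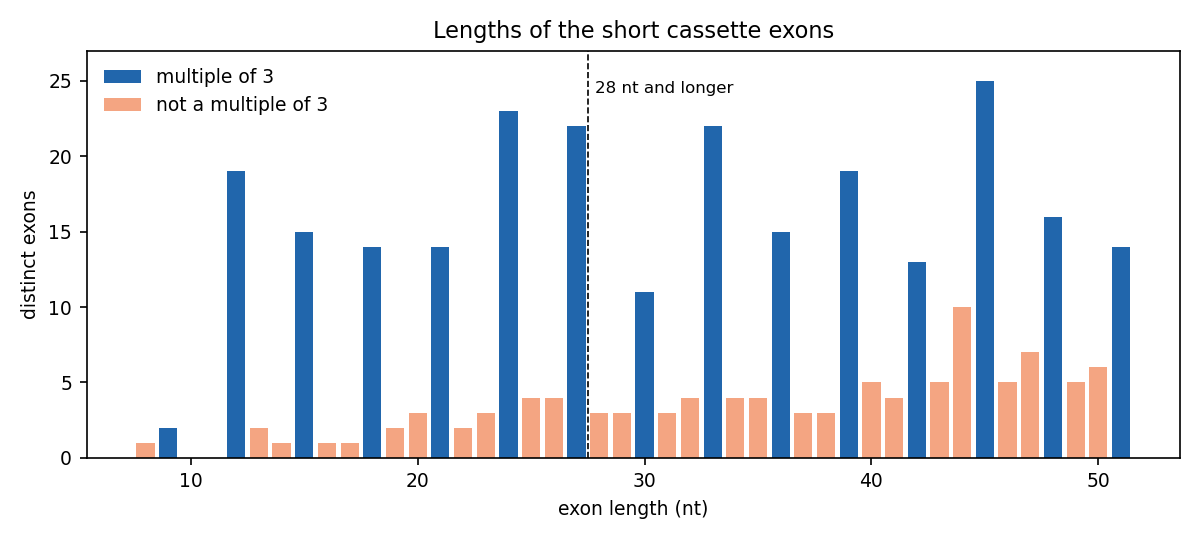
Number of distinct short cassette exons (vertical axis) at each length in nt (horizontal axis), with lengths that are a multiple of 3 in blue and others in orange; the dashed line separates exons up to 27 nt from longer ones. Blue bars exceed their orange neighbours from 12 nt on: 244 of 342 exons are a multiple of 3.

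Annotation and reading frame went together. GENCODE M21 holds 192 of the 342 as fully coding exons of protein-coding transcripts (56.1%), against 525 of 1388 longer ones (37.8%). Of those 192, 171 were a multiple of 3 (89.1%), and among coding exons up to 27 nt the count was 88 of 90. Longer coding cassette exons were a multiple of 3 in 352 of 525 cases (67.0%). Of the 150 short exons that are not annotated as fully coding, 73 were a multiple of 3 (48.7%). Of the rest, 12 were partly coding exons, 7 untranslated exons of coding transcripts and 10 exons of non-coding transcripts. A further 6 were exons of transcripts annotated for nonsense-mediated decay. Another 81 had at least 1 annotated end but matched no annotated exon at both ends, and 34 had no annotated end.

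Many short exons are alternative forms of one another. An end was shared with another listed cassette exon by 159 of the 342, and 85 of these shared it with a listed exon over 51 nt. Those 85 include the exons named below in Agrn, Arhgap26, Camk2g, Ccdc64, Cers5, Chl1, Clstn1, Dclk2, Lmtk3, Nin, Ppip5k2, Ptprs, Tbp and Uggt2. They also include the 18 nt exon of Adgrl3, the 39 nt exon of Kif21a and the Ptprd exon of 12 nt listed for Gad2-Cre neurons. The 36 nt and 33 nt exons of Pikfyve, for example, differ by 3 nt at their start. Such pairs draw on some of the same reads and are not separate measurements. Among the 183 short exons that shared no end, 145 were a multiple of 3 (79.2%), and among the 159 that did, 99 were (62.3%). For longer cassette exons these shares were 334 of 636 (52.5%) and 355 of 752 (47.2%). A listed tandem event (consecutive alternative exons treated together) also held 102 of the short exons, and a listed mutually exclusive pair held 24.

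In Emx1-Cre neurons 185 of the 870 listed cassette exons were short (21.3%), in Gad2-Cre neurons 121 of 702 (17.2%), in the Purkinje layer 47 of 262 (17.9%), and between the control groups of the cortical classes 130 of 526 (24.7%). Exons up to 27 nt made up 73 (8.39%), 43 (6.13%), 16 (6.11%) and 61 (11.6%) of those lists. Most short exons were in 1 list (222 of 342), 100 were in 2, 19 in 3, and 1 in all 4, the 18 nt exon of Clasp2.

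Loss of Nova2 in Emx1-Cre neurons moved short exons in both directions, with falls more frequent. Of 185 short exons, 109 fell and 76 rose, so that 58.9% fell (51.5 to 66.1), beside 52.9% of all listed cassette exons and 51.2% of those over 51 nt. The share was the same up to 27 nt, at 43 of 73 (58.9%), and from 28 to 51 nt, at 66 of 112 (58.9%). The median size of the difference was 0.249 for short and 0.224 for longer exons. Exons that fell went from a median level of 0.620 to 0.208, and exons that rose went from 0.262 to 0.584. Among short exons that share no end with another listed exon, 53 of 98 fell (54.1%, 43.7 to 64.2). Of longer exons with no shared end, 138 of 293 fell (47.1%). With 1 short exon per gene, 80 of 145 fell (55.2%, 46.7 to 63.4).

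In Gad2-Cre neurons 90 of 121 short exons fell and 31 rose. The share that fell was 74.4% (65.6 to 81.9), beside 63.8% of all listed cassette exons and 61.6% of those over 51 nt. It was 31 of 43 (72.1%) up to 27 nt and 59 of 78 (75.6%) from 28 to 51 nt. The median size of the difference was 0.229 for short and 0.236 for longer exons. Among short exons that share no end it was 42 of 66 (63.6%, 50.9 to 75.1), beside 148 of 256 longer exons with no shared end (57.8%). Of the short exons that do share an end, 48 of 55 fell (87.3%), beside 210 of 325 longer exons that share one (64.6%).

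Falls were also counted by reading frame. Short exons that are not a multiple of 3 fell in 28 of 42 cases in Emx1-Cre neurons (66.7%, 50.5 to 80.4) and in 28 of 33 in Gad2-Cre neurons (84.8%, 68.1 to 94.9). Those that are a multiple of 3 fell in 81 of 143 (56.6%, 48.1 to 64.9) and 62 of 88 (70.5%, 59.8 to 79.7). The intervals overlap in each class, and the difference was not tested. At the upper length limit, 4 of 7 exons of exactly 51 nt fell in Emx1-Cre neurons and 10 of 17 of 52 to 54 nt did. In Gad2-Cre neurons these counts were 2 of 4 and 12 of 12.

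**Figure D2:**
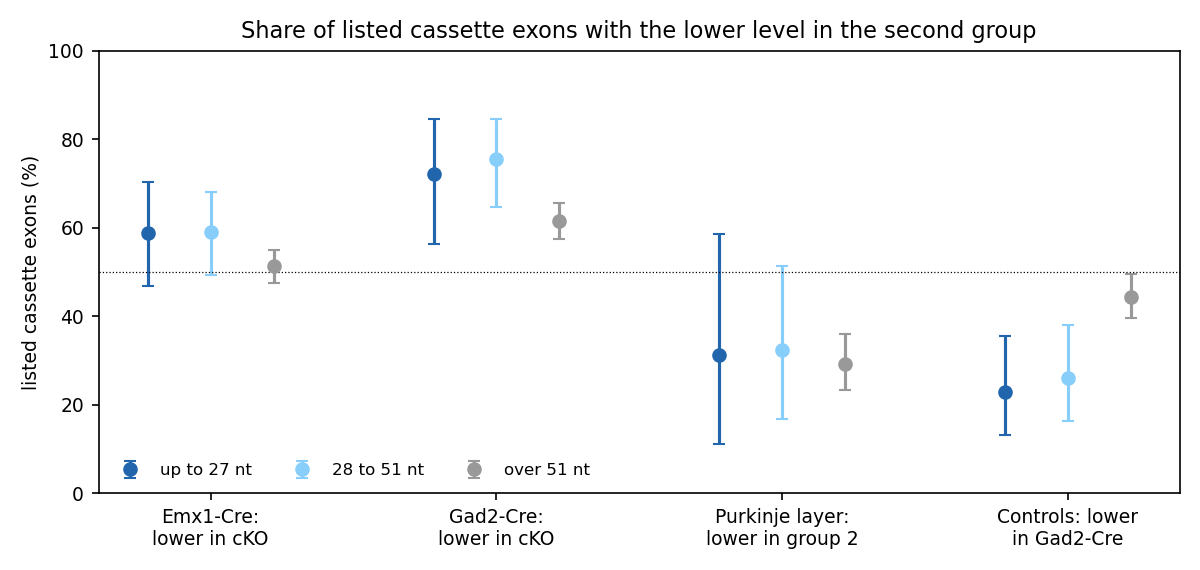
Percent of listed cassette exons with the lower inclusion level in the second group of each list (vertical axis), for exons up to 27 nt, of 28 to 51 nt and over 51 nt; points are shares and bars exact 95% intervals for counting error. The short classes lie above the longer exons in Emx1-Cre and Gad2-Cre neurons, with overlapping intervals, and below them between the control groups.

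Falls of microexons were close to complete in some genes and partial in others. The 12 nt exon of Cacna1b, the pore subunit of the presynaptic N-type calcium channel, went from a level of 0.540 to 0.00667 in Emx1-Cre neurons and from 0.380 to 0.0197 in Gad2-Cre neurons. In Cacna2d3, an auxiliary calcium channel subunit, the 18 nt exon went from 0.671 to 0.123 in Gad2-Cre neurons. Its levels in Emx1-Cre neurons were 0.464 and 0.0545 at a coverage of 32.1. Coverage is the authors' value per event. It is never below 20 in the lists, and neither the labels nor the file headers define it. The 22 nt exon of Ppip5k2, an inositol pyrophosphate kinase, is no multiple of 3 and has at least 1 annotated end. It shares an end with 2 listed exons over 51 nt, and it fell from 0.393 to 0.0259 and from 0.642 to 0.0960. In Erc2, a scaffold of the presynaptic active zone, the 24 nt exon fell from 0.672 to 0.203 in Emx1-Cre and from 0.810 to 0.515 in Gad2-Cre neurons. A 26 nt exon that is not annotated, in the region of Gm15186 and A830080D01Rik, fell from 0.692 to 0.266 in Emx1-Cre neurons.

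The receptor phosphatases of the LAR family, which bind synaptic partners across the cleft, held 11 of the short exons, and their microexons did not all move one way. In Ptprf the 18 nt exon fell from 0.479 to 0.000207 in Emx1-Cre and from 0.452 to 0.0534 in Gad2-Cre neurons, and the 33 nt exon fell from 0.597 to 0.00961 in Emx1-Cre neurons. Other exons of the same gene rose in those neurons: 12 nt, not annotated, from 0.107 to 0.306, and 27 nt from 0.756 to 0.892. A 38 nt form of the latter exon, with which it shares an end, rose from 0.592 to 0.814. The 27 nt exon of Ptprs also rose, from 0.642 to 0.820. In Ptprd all listed exons fell: the 18 nt exon from 0.693 to 0.20 in Emx1-Cre and from 0.169 to 0.0501 in Gad2-Cre neurons, the 9 nt exon from 0.418 to 0.146 in Emx1-Cre neurons, and an exon listed as 12 and as 15 nt from 0.529 to 0.302 and from 0.375 to 0.189. A separate 12 nt exon fell from 0.939 to 0.784 in Gad2-Cre neurons.

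The 18 nt exons of Ptprf and Ptprd, printed above, are alike: 16 of 18 bases are equal when they are lined up without gaps. Both fell in both cortical classes. This comparison was made after the values had been seen.

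The gene lists used from here on are small and were not tested against other short exons. Their counts stand beside the share of falls over all short exons, 58.9% in Emx1-Cre and 74.4% in Gad2-Cre neurons. Of 16 short exons in 11 cytoskeleton and motor genes all 16 fell in Emx1-Cre neurons, with a median size of 0.323, and 15 of 16 fell in Gad2-Cre neurons, with a median of 0.262. Some of these exons are overlapping forms: counted as groups of overlapping exons they were 13 of 13 and 11 of 12. The exception in Gad2-Cre neurons was Ank3, and a second event of that exon rose in Emx1-Cre neurons too. Clasp2 encodes a protein that stabilises growing microtubule ends and had 7 listed short exons. A pair of them, 27 nt each, are neighbours in the transcript, as the overlap of their printed flanks shows. The upstream one fell from 0.443 to 0.0678 in Emx1-Cre and from 0.514 to 0.0954 in Gad2-Cre neurons. The downstream one fell from 0.438 to 0.0334 and from 0.468 to 0.0585. Further exons of Clasp2 moved less: the 18 nt exon went from 0.884 to 0.773 and from 0.862 to 0.692.

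Among the other cytoskeletal exons, the 33 nt exon of Camsap1, which caps microtubule minus ends, fell from 0.620 to 0.142 and from 0.563 to 0.202. In Ccdc64, an adaptor between dynein and vesicles, a 45 nt exon with at least 1 annotated end fell in both classes. It went from 0.904 to 0.0479 in Emx1-Cre and from 0.864 to 0.137 in Gad2-Cre neurons. These were the largest falls of a short exon at a coverage of at least 40 in each list. This exon shares an end with 3 listed exons over 51 nt. The 48 nt exon of Dclk2, a microtubule-binding kinase, fell from 0.412 to 0.0781 and from 0.268 to 0.0687. A 39 nt exon of the kinesin Kif21a fell from 0.589 to 0.277 and from 0.707 to 0.339.

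Of the short exons in genes already known for microexons, 21 of 28 fell in Emx1-Cre neurons and 21 of 21 in Gad2-Cre neurons, beside 58.9% and 74.4% of all short exons. These counts come from 14 and 12 genes, and as groups of overlapping exons they were 17 of 22 and 16 of 16. The list and the other gene lists were drawn up with results of these data known, and some genes are in several of them. Kdm1a encodes a histone demethylase whose 12 nt exon makes a neuronal form. That exon fell from 0.323 to 0.115 and from 0.418 to 0.130. A 44 nt form that shares its end fell from 0.217 to 0.0627 and from 0.276 to 0.0728.

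For presynaptic release and trafficking, 9 of 11 exons fell in Emx1-Cre neurons and 10 of 12 in Gad2-Cre neurons, beside 109 of 185 and 90 of 121 of all short exons. The 36 nt exon of Cask, a scaffold kinase that binds neurexins, fell from 0.622 to 0.212 and from 0.880 to 0.190. The 30 nt exon of Rims1, an active zone protein, rose instead, from 0.236 to 0.612 and from 0.368 to 0.661. It is not annotated.

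Synaptic adhesion genes had 18 falls and 8 rises in Emx1-Cre neurons, and 9 falls and 3 rises in Gad2-Cre neurons, beside 109 falls and 76 rises, and 90 and 31, over all short exons. In Clstn1, a transmembrane cargo adaptor of kinesin, a 48 nt exon had at least 1 annotated end. It fell from 0.971 to 0.188 and from 0.987 to 0.483. That exon shares an end with 2 listed exons over 51 nt. Agrin's 24 nt and 33 nt exons encode the neuronal insert by which it clusters acetylcholine receptors at the nerve-muscle synapse. The 33 nt exon fell from 0.388 to 0.150 and from 0.542 to 0.240. The 24 nt exon of Agrn was listed in both classes with 2 downstream introns, of 736 and 1039 nt. With the former it fell from 0.755 to 0.296 in Emx1-Cre and from 0.635 to 0.323 in Gad2-Cre neurons, and with the latter from 0.220 to 0.0264 and from 0.258 to 0.0560. In Chl1, a neural adhesion molecule of the L1 family, the 48 nt exon rose from 0.190 to 0.791 in Emx1-Cre and from 0.289 to 0.740 in Gad2-Cre neurons, at coverages of 1005 and 1060. In the authors' deposited tables its FDR was 3.5e-202 and 1.5e-109.

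Postsynaptic genes were split, with 3 falls and 4 rises in Emx1-Cre neurons and 1 of each in Gad2-Cre neurons, numbers too small to set against those of all short exons. The 45 nt exon of Erbb4, the neuregulin receptor, fell from 0.629 to 0.104 in Gad2-Cre neurons at a coverage of 771. In Emx1-Cre neurons it fell from 0.715 to 0.161 at a coverage of 27. The 33 nt exon of Camk2g, a calcium-dependent kinase, fell from 0.328 to 0.0706 in Emx1-Cre neurons.

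Among GTPase regulators and signalling genes rises outnumbered falls in Emx1-Cre neurons, where 8 of 10 short exons rose, in 7 of 9 genes, beside 76 of 185 short exons in all. In Gad2-Cre neurons 2 of 5 rose. The kinase gene Lmtk3 had the largest rise of any short exon at a coverage of at least 40 in the Emx1-Cre list: a 46 nt exon went from 0.0152 to 0.915, and from 0.00622 to 0.517 in Gad2-Cre neurons. It shares an end with a longer listed exon. In Dab1, the adaptor of Reelin signalling, the 51 nt exon rose from 0.0115 to 0.694 in Emx1-Cre neurons. A 27 nt exon of Ppp3cb, a catalytic subunit of calcineurin, is not annotated. It rose from 0.00754 to 0.464 and from 0.00491 to 0.309.

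Ion channel and pump genes had 4 falls and 3 rises in Emx1-Cre neurons, beside 109 falls and 76 rises over all short exons. As groups of overlapping exons they had 3 falls and 3 rises. In Gad2-Cre neurons 2 exons fell and 1 rose, beside 90 falls and 31 rises. The largest rise of an exon up to 27 nt at a coverage of at least 40 in Emx1-Cre neurons was in Slc8a1. This gene encodes the sodium-calcium exchanger NCX1, and its 21 nt exon went from 0.0474 to 0.75. In Gad2-Cre neurons it went from 0.132 to 0.395. Itpr1, the inositol trisphosphate receptor that releases calcium from the endoplasmic reticulum, had 5 listed short exons. A 38 nt exon that is not annotated rose from 0.00763 to 0.515 in Emx1-Cre neurons. Its 51 nt exon fell from 0.947 to 0.731 in the same neurons.

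Further rises were listed at single exons of other genes. The 21 nt exon of Ptprz1, a receptor phosphatase, rose from 0.252 to 0.782 and from 0.122 to 0.592. The 27 nt exon of Sgce, epsilon-sarcoglycan, rose from 0.224 to 0.743 and from 0.548 to 0.732. In Robo2, a receptor for Slit guidance cues, the 12 nt exon rose from 0.607 to 0.917 and from 0.564 to 0.833. The 12 nt exon of Vps29, a retromer subunit, rose from 0.0974 to 0.325 and from 0.0819 to 0.322. A 24 nt exon of the activin receptor gene Acvr2a that is not annotated rose from 0.118 to 0.513 and from 0.207 to 0.405. The 45 nt exon of Fryl rose from 0.0261 to 0.597 in Emx1-Cre neurons and from 0.0286 to 0.209 in Gad2-Cre neurons.

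**Figure D3:**
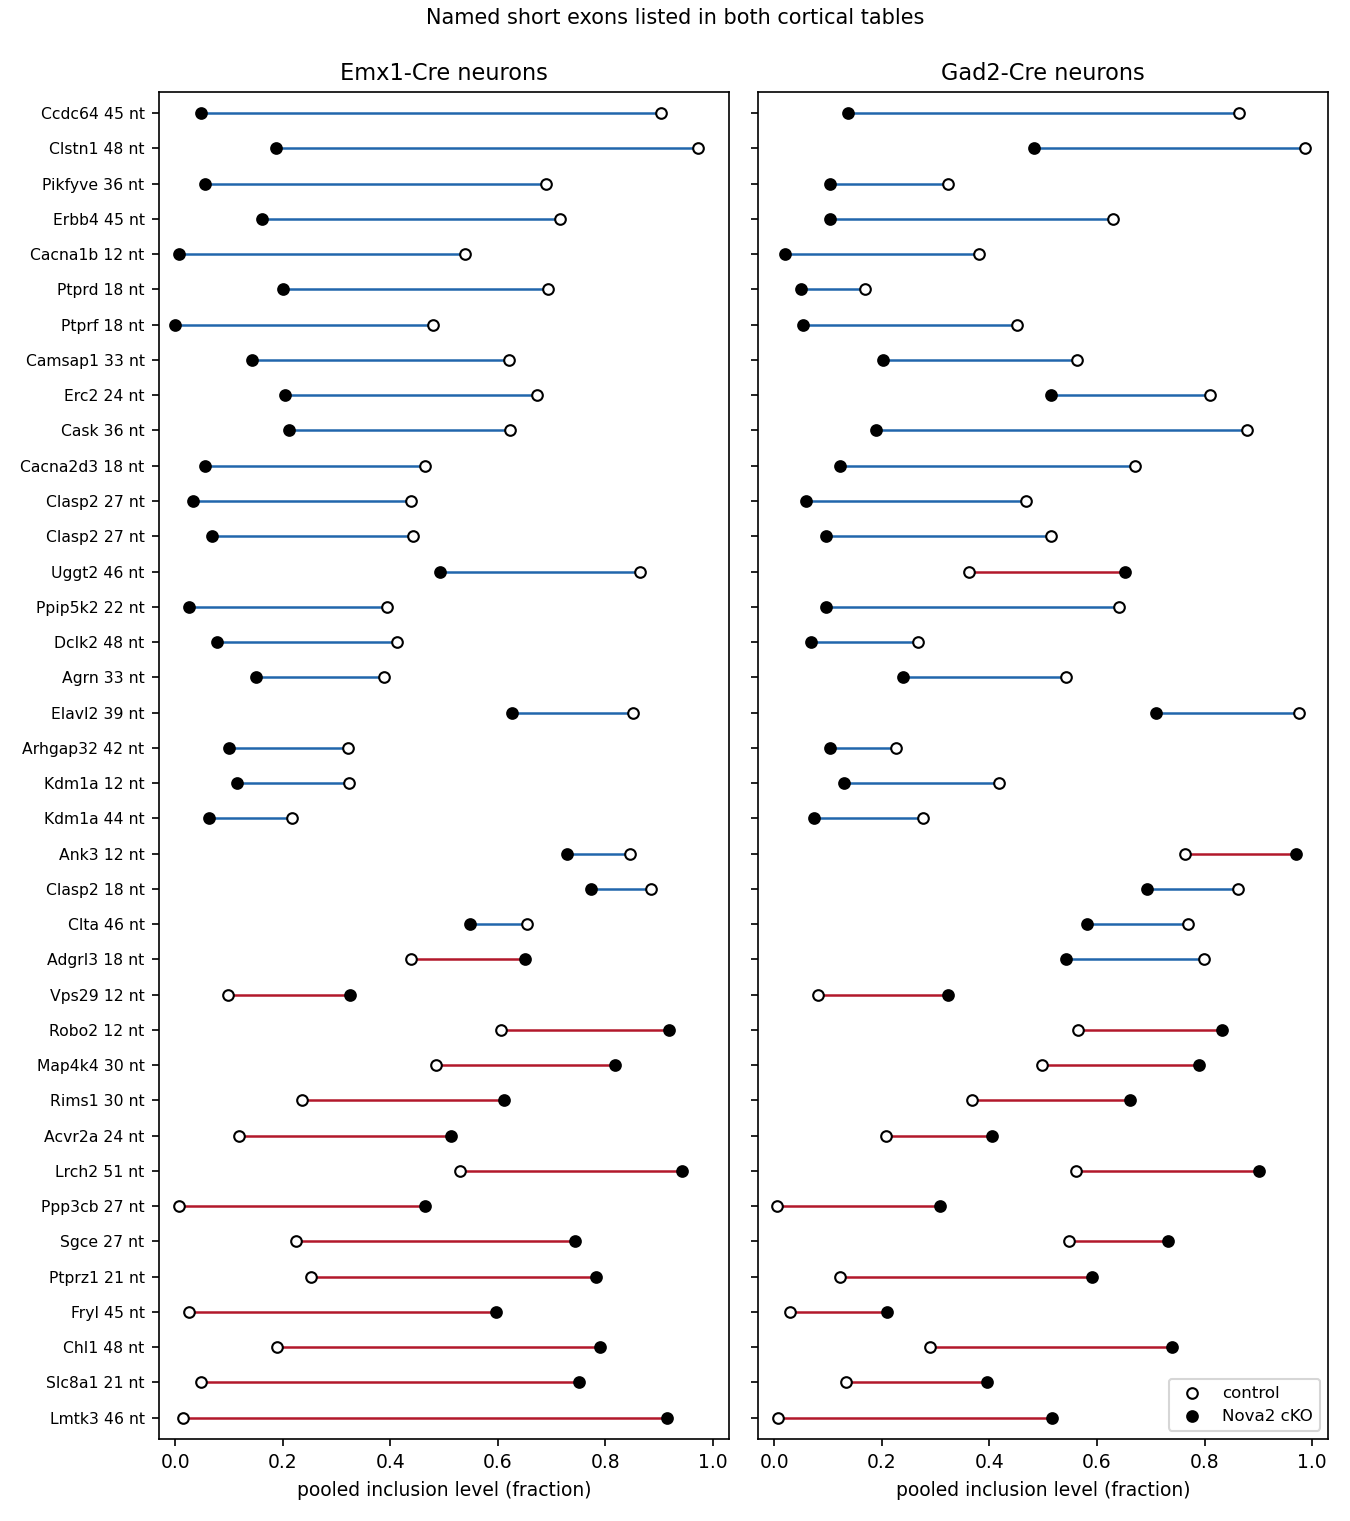
Pooled inclusion levels (fraction, horizontal axis) of 38 named short exons listed for both cortical classes, in control (open circles) and Nova2 cKO neurons (filled circles), ordered by the difference in Emx1-Cre neurons. Blue lines are falls and red lines rises in cKO, and 3 exons (Uggt2, Ank3 and Adgrl3) change colour between the panels, that of Ank3 with different events in the panels; there is 1 pooled level per group and no error can be drawn.

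Of 69 genes on the list of splicing factors and RNA-binding proteins, 2 had a listed short exon, and of 38 chromatin and transcription genes 2 had one. The share of all genes with a listed short exon was not counted. The gene counts of this paragraph therefore show neither an excess nor a lack. Elavl2, a neuronal RNA-binding protein, had a 39 nt exon that fell from 0.851 to 0.625 and from 0.976 to 0.710. A 32 nt exon of Rbfox2 that is not annotated fell from 0.868 to 0.451 in Emx1-Cre neurons. Of the 29 earlier reported targets of NOVA proteins on the list, 13 had a short exon. In these, 13 exons fell and 6 rose in Emx1-Cre neurons, and 9 fell and 2 rose in Gad2-Cre neurons, beside 58.9% and 74.4% falls over all short exons. None of 32 marker genes of other cell types had a listed short exon, and the lists hold no expression levels, so the makeup of the sorted cells was not tested.

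Both cortical classes listed 70 short exons, 37.8% of those in the Emx1-Cre list and 57.9% of those in the Gad2-Cre list. These 2 comparisons share no samples. In both, 50 of the 70 fell and 17 rose, so 67 moved the same way (95.7%, 88.0 to 99.1), beside 235 of 239 longer cassette exons (98.3%, 95.8 to 99.5). Of the 70, 68 had an event listed in both classes, and with the same event on both sides 48 fell, 18 rose and 2 went in opposite directions. The difference was larger in size in Emx1-Cre neurons for 42 exons and in Gad2-Cre neurons for 28. Across the 70 exons Pearson's r between the differences was 0.859 and Spearman's coefficient was 0.776. These coefficients describe exons that passed the same limits in both lists, some of which overlap each other.

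Exons listed for 1 class were counted apart, and the difference between these counts was not tested. Of 115 listed for Emx1-Cre but not for Gad2-Cre neurons, 57 fell (49.6%, 40.1 to 59.0), and of 51 listed for Gad2-Cre but not for Emx1-Cre neurons, 39 fell (76.5%, 62.5 to 87.2). Median coverage was 58.6 and 41.0 for these exons and 108 and 82.6 for the shared ones, whose differences were also larger (medians 0.328 and 0.283 against 0.217 and 0.175). The part of coverage in what is listed for 1 class was not tested.

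**Figure D4:**
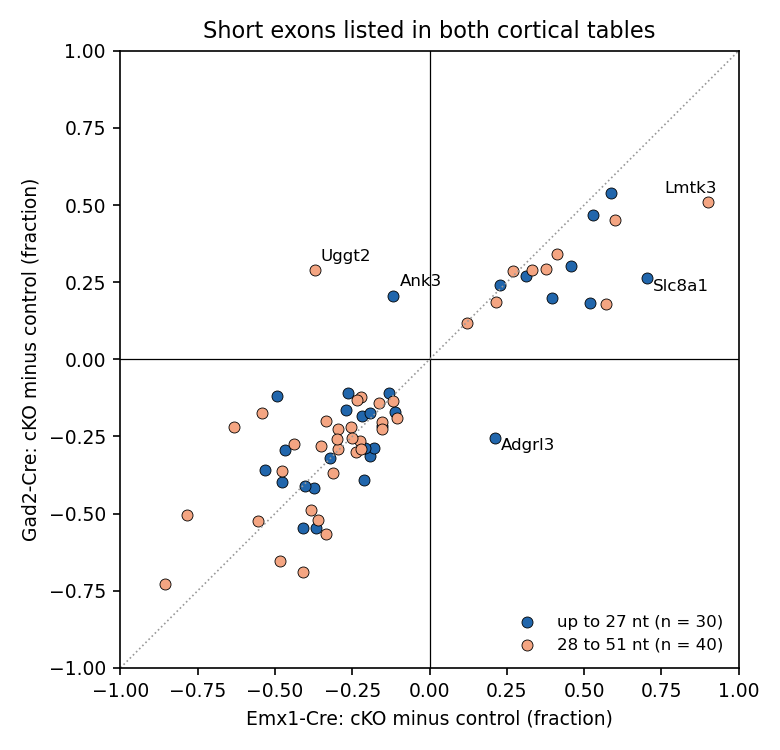
Difference in inclusion level, cKO minus control (fraction), in Emx1-Cre (horizontal axis) and Gad2-Cre neurons (vertical axis) for the 70 short exons listed in both; blue points are exons up to 27 nt, orange points 28 to 51 nt, and the dotted line marks equal differences. All but 3 points lie in the quadrants of equal direction, and the 3 exceptions are labelled; that of Ank3 rests on different events in the 2 lists.

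The exceptions were Adgrl3, Ank3 and Uggt2. In Adgrl3, the adhesion receptor latrophilin 3, the 18 nt exon rose from 0.439 to 0.650 in Emx1-Cre and fell from 0.798 to 0.543 in Gad2-Cre neurons. In Ank3, which encodes the axon initial segment scaffold ankyrin-G, the 12 nt exon fell from 0.846 to 0.729 in Emx1-Cre neurons in the event with a downstream intron of 2935 nt, and rose from 0.764 to 0.970 in Gad2-Cre neurons in the event with one of 2950 nt. The event with 2950 nt was listed for Emx1-Cre neurons too, at a lower coverage, and there the exon rose from 0.777 to 0.977. On the event that both lists hold, the Ank3 exon therefore rose in both classes. For Adgrl3 and Uggt2 the same event was used in both lists, and each exon shares an end with a listed exon over 51 nt. A 46 nt exon of Uggt2, a folding sensor of the endoplasmic reticulum, fell from 0.864 to 0.492 and rose from 0.363 to 0.652. The authors' FDR in the deposited tables was between 5.2e-11 and 0.041 for the 6 differences of opposite direction, and the lowest coverages were 33.0 and 41.0, both for Uggt2. A second Adgrl3 exon, of 27 nt, fell in both classes, from 0.275 to 0.00445 and from 0.201 to 0.0360.

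Between control neurons of the 2 classes, without any loss of Nova2, short exons were mostly more included in Gad2-Cre neurons. This held for 98 of 130 (75.4%, 67.1 to 82.5), beside 60.5% of all listed cassette exons and 55.6% of those over 51 nt. Up to 27 nt the count was 47 of 61 (77.0%), and among exons that are a multiple of 3 it was 73 of 92. Without exons that share an end it was 50 of 65 (76.9%), beside 114 of 188 longer exons (60.6%). The median difference was 0.198 for short and 0.206 for longer exons.

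Cytoskeleton genes were higher in Gad2-Cre controls for 14 of 15 short exons, in 8 of 9 genes, and known microexon genes for 14 of 16, beside 98 of 130 of all short exons. As groups of overlapping exons these were 11 of 12 and 12 of 14. The largest differences at a coverage of at least 40 were in Trrap, Nin and Clasp2. A 21 nt exon of Trrap, a scaffold of histone acetyltransferases, had 0.278 in Emx1-Cre and 0.891 in Gad2-Cre controls. A 47 nt untranslated exon of Nin, a centrosomal anchor of microtubules, had 0.356 and 0.944. A 22 nt exon of Clasp2 with at least 1 annotated end had 0.277 and 0.816. The annotated 24 nt coding form of that Clasp2 exon, which shares an end with it, differed less (0.797 and 0.973). In the other direction, the 18 nt exon of Ptprd had 0.693 in Emx1-Cre and 0.169 in Gad2-Cre controls. Synaptic adhesion genes were lower in Gad2-Cre controls for 7 of 12 short exons, and for 5 of 10 groups of overlapping exons. The 24 nt exon of Nrxn2, a presynaptic adhesion receptor named here after its values had been seen, was among the lower ones (0.448 and 0.128).

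The table of controls uses the same control samples as the cKO comparisons, so its differences are not independent of theirs. For 13 short exons in 12 genes all 3 lists gave the same control levels, and their 4 levels can be set side by side. For the 18 nt exon of Ptprd these were 0.693 in Emx1-Cre control, 0.20 in Emx1-Cre cKO, 0.169 in Gad2-Cre control and 0.0501 in Gad2-Cre cKO neurons. Cask had 0.622, 0.212, 0.880 and 0.190 in that order. For Sgce the order gave 0.224, 0.743, 0.548 and 0.732, and for the 36 nt exon of Pikfyve, the kinase that makes phosphatidylinositol 3,5-bisphosphate, it gave 0.689, 0.0551, 0.322 and 0.104. In all of these exons but those of Cers5 and Erc2 the cKO levels of the 2 classes lay closer together than the control levels. In Erc2 the cKO levels lay farther apart: 0.672 and 0.810 in controls, 0.203 and 0.515 in cKO neurons. All 13 exons were taken because their control levels differ by at least 0.1, while the cKO levels had to pass no such limit. That choice favours closer cKO levels in advance, so no conclusion is drawn from them.

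**Figure D5:**
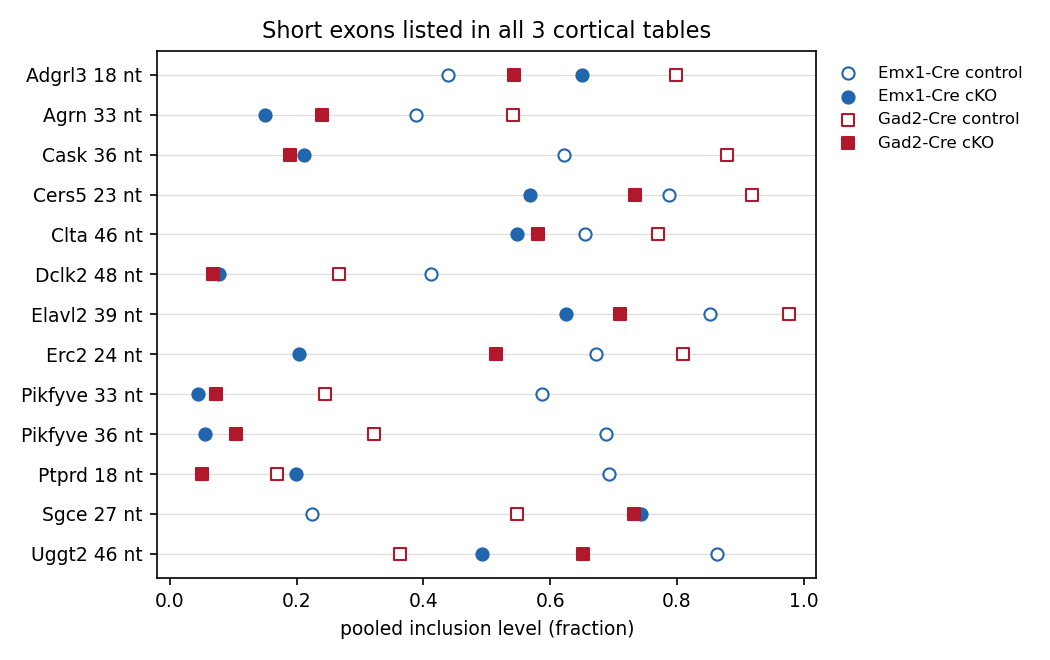
Pooled inclusion levels (fraction, horizontal axis) of the 13 short exons listed in all 3 cortical comparisons with matching control levels; blue circles are Emx1-Cre and red squares Gad2-Cre neurons, open for control and filled for cKO. Ptprd has its highest level in Emx1-Cre control neurons (0.693) and Cask in Gad2-Cre control neurons (0.880).

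In the Purkinje layer the deposited list does not name which group is the control, so levels are given for groups 1 and 2 and no direction of Nova2 loss is drawn. Of 47 short exons 15 were lower in group 2 (31.9%, 19.1 to 47.1), beside 29.8% of all listed cassette exons and 29.3% of those over 51 nt. The largest differences at a coverage of at least 40 were a 24 nt exon of Ank1, an ankyrin (0.995 in group 1, 0.489 in group 2), a 30 nt exon of Arhgap26, a GTPase-activating protein (0.0189 and 0.495), and the Ccdc64 exon (0.760 and 0.306). Next came the Acvr2a exon (0.157 and 0.542), a 36 nt exon of Ralgapb, which regulates Ral GTPases (0.667 and 0.338), and a 49 nt untranslated exon of Tbp, the TATA-binding protein (0.261 and 0.568).

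Itpr1 had the deepest coverage of all short exons there, 6953, for its 45 nt exon (0.256 and 0.402), and its 51 nt exon had 0.708 and 0.814. All 5 short exons of ion channel and pump genes, in 3 genes, were higher in group 2, with a median difference of 0.146, beside 68.1% of all short exons there. The 5 make 4 groups of overlapping exons, and 3 of them are in Itpr1. Of the 47 exons, 11 were also listed for Emx1-Cre and 10 for Gad2-Cre neurons. The 21 nt exon of Slc8a1 had 0.130 and 0.304, the 27 nt exon of Ppp3cb 0.0770 and 0.283, and the 42 nt exon of Arhgap32, a GTPase-activating protein, 0.845 and 0.655. The latter fell in cKO neurons of the cortex, from 0.321 to 0.10 in the Emx1-Cre and from 0.227 to 0.103 in the Gad2-Cre class, from control levels far below either Purkinje layer level.

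The word recognised by NOVA was counted within the exons that GENCODE M21 holds as an exon with the same start and end. The words searched were TCAT or TCAC, and the same pair with C in the first place, written CCAT or else CCAC. The search ran on the RNA strand of the exon, where overlapping matches count separately. At least 1 was found in 79 of 227 short exons (34.8%) and in 628 of 793 longer ones (79.2%). Per 100 nt of exon these were 1.42 and 1.84. Up to 27 nt the share was 21 of 94 (22.3%). The Clasp2 exon at chr9:113862436-113862462, printed above, holds 3 matches and its neighbour 2, the Cask exon 2, the Cacna1b exon 1, and the Cacna2d3, Slc8a1, Ptprz1, Sgce and Robo2 exons none. A match is a description and no evidence of binding.

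Exons that fell held a match in 22 of 72 cases in Emx1-Cre neurons (30.6%, 20.2 to 42.5) and in 23 of 61 in Gad2-Cre neurons (37.7%, 25.6 to 51). Exons that rose held one in 20 of 45 (44.4%, 29.6 to 60) and 8 of 20 (40%, 19.1 to 63.9). The intervals of the directions overlap in each class, and the difference was not tested. Flanking introns, where NOVA also binds, were not analysed here. Median intron lengths before and after the exon were 1944.5 and 2177.5 nt for short and 2254.5 and 2246 nt for longer cassette exons. Median GC content was 48.0% and 50.5% in the 227 short and 793 longer exons searched for YCAY.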

How the data were processed

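The authors quantified splicing with Quantas on mm10, per the labels. The submitters' processing notes also name kallisto and edgeR, without saying for which step. Aligner and versions: not given in the sources used here. RNA was extracted with Trizol and depleted of ribosomal RNA, per the labels' protocols. Each of 4 deposited tables holds, by its header, a single inclusion fraction for either group, the level of group 1 minus that of group 2, an event coverage (a signal of undefined scale, deposited as 1 value per comparison), a p-value and an FDR. Differences were recomputed here as second group minus first. They matched the deposited differences within 3e-08. No column holds values of single samples, so depth by sample is unknown and no test over samples was possible.

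Exon positions came from the deposited interval lists (start written 1-based). Where a table lists an exon in several events, the event with the highest coverage gave its value. The members, gene lists and rules were chosen with earlier results of these data known. Named exons were: the 5 largest falls and rises per cortical list and length class at a coverage of at least 40, the 3 largest of each sign in the other lists, exons of opposite direction, 10 exons of 3 or more lists, 3 per gene list, and the 5 genes with most short exons. Exons were matched to GENCODE M21, whose transcripts gave the sequences; flanks are ends of neighbouring exons. The intervals and the motif search were tested on simulated data. Python 3.11.15, pandas 2.3.3 and SciPy 1.17.1 were used. Values of some named exons are not reported here.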

Additional observations from a re-analysis of the deposited data

How the results depend on the processing

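The 10 shares given for direction, shared direction, reading frame and YCAY were recomputed with 1 exon per gene, a coverage of at least 40, a difference of at least 0.2, an FDR of at most 0.001, the event with the largest difference, limits of 27 and 60 nt, and annotated exons only. Chosen after seeing the data were exons with no shared end, 1 exon per group of overlapping exons, the same event in both cortical lists, and at least 2 YCAY. Of 97 values, 85 stayed within the 95% interval of the value reported, and no share of a direction crossed 50%. For falls in Emx1-Cre neurons, however, the interval reached below 50% at several settings. These were 1 exon per gene (55.2%, 46.7 to 63.4) and the stricter FDR (58.3%, 48.5 to 67.7). The interval also did so up to 27 nt (46.8 to 70.3) and with no shared end (43.7 to 64.2). With 1 exon per group of overlapping exons it was 48.2 to 64.1. At the other settings its lower end stayed above 50%. The 12 values outside their intervals were as follows. The share with a length that is a multiple of 3 was 80.7% at the stricter FDR, 82.0% up to 27 nt, 83.3% for annotated exons and 79.2% with no shared end. The share of falls in Gad2-Cre neurons was 63.6% with no shared end. All 36 exons at the stricter FDR moved the same way in both classes (100%). With YCAY, exons up to 27 nt that rose gave 28.6% in Emx1-Cre and 0% (0 of 8) in Gad2-Cre neurons. With at least 2 YCAY the shares were 11.1% for falls and 11.1% for rises in Emx1-Cre neurons, and 11.5% and 10% in Gad2-Cre neurons. Asking for 2 matches in the same exons can only lower a share, so these values are no check. The causes of the other changes were not tested. These subsets hold fewer exons, apart from the counts with at least 2 YCAY, which use the same exons.

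No paired analysis was possible because the tables hold 1 pooled level per group; leaving out samples was not possible for the same reason. Counts of YCAY in introns were not run, because no genome sequence was used here. The lists hold only events past the authors' limits, so shares describe those events. Coverage was below 40 for 44 of 185 short exons in Emx1-Cre and 37 of 121 in Gad2-Cre neurons. For longer cassette exons this held for 223 of 685 and 235 of 581.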

Other observations

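Short exons without annotation had some of the largest differences. Of the 342, 34 matched no end of a GENCODE M21 exon, and 81 matched at least 1 end but no exon at both. So 115 have no annotated counterpart, beside 595 of 1388 longer cassette exons. Those named above that matched no end were in Acvr2a, Ppp3cb, Rims1, Itpr1, Rbfox2, Ptprf and the A830080D01Rik region.

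A 27 nt exon of Rims2, which was named after its values had been seen, is not annotated either and rose from 0.117 to 0.350 in Emx1-Cre neurons. The 30 nt exon of its relative Rims1 rose in both cortical classes. The 42 nt and 46 nt exons of Dlg3, a postsynaptic scaffold, moved oppositely in Emx1-Cre neurons: the 42 nt exon rose from 0.528 to 0.978 and the 46 nt exon fell from 0.722 to 0.328, at coverages of 34 and 31. Both are in a listed mutually exclusive event, so these are not separate measurements.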
